A study of Mus musculus with 2 samples.

Results

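The caveolins and cavins were followed in the polyadenylated RNA of the adult mouse urinary bladder, together with the membrane-shaping proteins that sit at the same structures. The set holds 9 genes of the 43346 Ensembl genes in the deposited tables, listed by gene name: Cav1, Cav2, Cav3, Cavin1, Cavin2, Cavin3, Ehd2, Pacsin2 and Pacsin3. In older annotation Cavin1, Cavin2 and Cavin3 are listed as Ptrf, Sdpr and Prkcdbp. All 9 were found in both libraries.

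The study holds 1 group, bladder of C57BL/6J mice aged 8 weeks, with 2 libraries numbered as biological replicates 1 and 2. Per the labels, the mice were littermates of both sexes. The labels name no allele or agent, and they give the RNA as depleted of ribosomal RNA and spiked with control RNA, for stranded paired-end sequencing. Both libraries name the same donor entry and the number of mice behind each is not stated, so an SD over them (n = 2 throughout) can hold technical spread alone. With 1 group there is no contrast between conditions and no p-value is given. Replicate 1 held 99367453 expected counts on genes and replicate 2 held 105057347.

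Caveolae are flask-shaped pits of the plasma membrane, abundant in smooth muscle, endothelium, adipocytes and fibroblasts. Caveolins are hairpin membrane proteins that form the inner coat, and cavins are peripheral coiled-coil proteins that assemble on it from the cytosol. EHD2, an ATPase, holds caveolae at the cell surface, and pacsins (syndapins) are F-BAR proteins that bind and bend membrane, PACSIN2 being found at caveolae in many cells and PACSIN3 mainly in muscle.

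Levels are given in TPM, a length-adjusted abundance scaled to a fixed library total, which allows genes to be set side by side. In whole tissue, fewer cells of a type and less RNA per cell cannot be told apart. All 9 genes were at or above 1 TPM in both libraries, against 32.7% of all Ensembl genes. Their means ran from 17.4 to 551 TPM with a median of 62.4 TPM, and all 9 lay above 14.4 TPM, the median of genes averaging 1 TPM or more. Together they held 0.151% of gene TPM in replicate 1 and 0.141% in replicate 2, a mean of 0.146% ± 0.007 (SD). Cav1 and Cavin1 made up 62.8% and 55.1% of the summed level of the 9. As a share of expected counts, which are not divided by length, the 9 held 0.234% and 0.209%.

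Cav1, which encodes caveolin-1, the caveolin that builds caveolae outside striated muscle, led the set. Its level was 599 TPM in replicate 1 and 502 TPM in replicate 2 (551 ± 68.2), rank 191 and 234 among all genes (ENSMUSG00000007655.12, mm10 chr6:17306335-17341452, plus strand). Cav2, whose protein joins caveolin-1 in hetero-oligomers and needs it to leave the Golgi, had 45.3 and 60.1 TPM (52.7 ± 10.5). It lies at chr6:17281185-17289115 (ENSMUSG00000000058.6) on the same strand, 17.2 kb upstream of Cav1, with no annotated gene lying wholly between them. Cav1 was above Cav2 in both libraries, but the genes moved in opposite directions between them: Cav1 was higher in replicate 1 and Cav2 in replicate 2. The ratio of Cav1 to Cav2 was therefore 13.2 in replicate 1 and 8.36 in replicate 2, a log2 ratio of 3.39 ± 0.47.

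Cav3, the caveolin of skeletal and cardiac muscle that is also found in some smooth muscle, was the lowest of the 9. It had 16.7 TPM in replicate 1 and 18.2 TPM in replicate 2 (17.4 ± 1.04), from 1236 and 1466 counts (ENSMUSG00000062694.6, chr6:112459505-112472872, plus strand). Cav1 exceeded it 35.9-fold and 27.6-fold. Cav1 made up 90.6% and 86.5% of the summed caveolin level.

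The windows around the annotated start sites are shown for the caveolins because these genes, all on chromosome 6, hold the highest and the lowest level of the set, and because Cav1 has starts in separate places. Each window runs from 250 bases before a start to 50 bases after it, 5′ to 3′ on the gene's strand, from RefSeq on GRCm38.p6 (the mm10 assembly). Capitals mark any match on either strand to 4 motifs. They are the CCAAT box, the GC box spelled GGGCGG, the TATA box spelled TATAAA, and the CArG box, the site of serum response factor.
Cav1 upstream start, chr6:17306085-17306384: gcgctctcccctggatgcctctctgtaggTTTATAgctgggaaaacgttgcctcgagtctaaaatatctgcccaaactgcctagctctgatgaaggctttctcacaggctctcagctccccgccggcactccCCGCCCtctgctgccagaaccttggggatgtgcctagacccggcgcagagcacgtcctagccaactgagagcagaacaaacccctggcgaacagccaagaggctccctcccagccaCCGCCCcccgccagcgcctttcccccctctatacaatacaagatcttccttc
Cav1 downstream start, chr6:17307390-17307689: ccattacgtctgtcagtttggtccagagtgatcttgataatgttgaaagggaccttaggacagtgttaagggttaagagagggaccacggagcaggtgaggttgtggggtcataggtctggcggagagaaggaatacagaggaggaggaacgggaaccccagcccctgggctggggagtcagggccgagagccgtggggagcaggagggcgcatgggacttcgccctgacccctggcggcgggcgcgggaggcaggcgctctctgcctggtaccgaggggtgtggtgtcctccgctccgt
Cav2, chr6:17280935-17281234: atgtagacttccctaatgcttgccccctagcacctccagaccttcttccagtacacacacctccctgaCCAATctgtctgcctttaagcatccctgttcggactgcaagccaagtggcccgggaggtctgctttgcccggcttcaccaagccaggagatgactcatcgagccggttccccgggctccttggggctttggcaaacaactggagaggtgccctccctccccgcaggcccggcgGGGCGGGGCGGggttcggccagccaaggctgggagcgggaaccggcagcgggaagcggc
Cav3, chr6:112459255-112459554: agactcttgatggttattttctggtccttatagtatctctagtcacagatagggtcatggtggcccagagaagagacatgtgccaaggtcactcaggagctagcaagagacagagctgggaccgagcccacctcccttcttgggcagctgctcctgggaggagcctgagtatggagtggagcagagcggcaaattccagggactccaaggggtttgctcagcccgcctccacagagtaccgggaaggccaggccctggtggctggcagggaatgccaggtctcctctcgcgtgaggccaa

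GGGCGG stood in the window of the upstream Cav1 start and in that of Cav2, and in neither of the windows of the downstream Cav1 start and of Cav3. Of 12 distinct windows for 8 of the 9 genes, 7 held GGGCGG, against 35.6% of 32817 windows of the same length over all genes. CCAAT stood in 7 of the 12 (37.4% of all windows) and TATAAA in 1 of the 12, that of the upstream Cav1 start (13.6% of all windows). That TATAAA match is on the strand opposite to the gene and near the 5′ end of the window, far from the start site. No window held a CArG box, which 1.63% of all windows did. The share of G and C was 59.3% and 62.3% in the Cav1 windows, 64.3% for Cav2, 58.0% for Cav3 and 43.3% for Cavin2, with a median of 52.7% over all windows. A match is a stretch of letters and was not tested as a binding site. Cavin3 was not in the table of windows. The windows follow RefSeq starts, which are not always those of the quantified transcripts. The Cavin1 window (chr11:100970566-100970865) lies wholly downstream of the start of Cavin1-201, its leading transcript, at 100970887. The Pacsin2 window at chr15:83447831-83448130 is at the start of no quantified transcript.

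**Figure D1:**
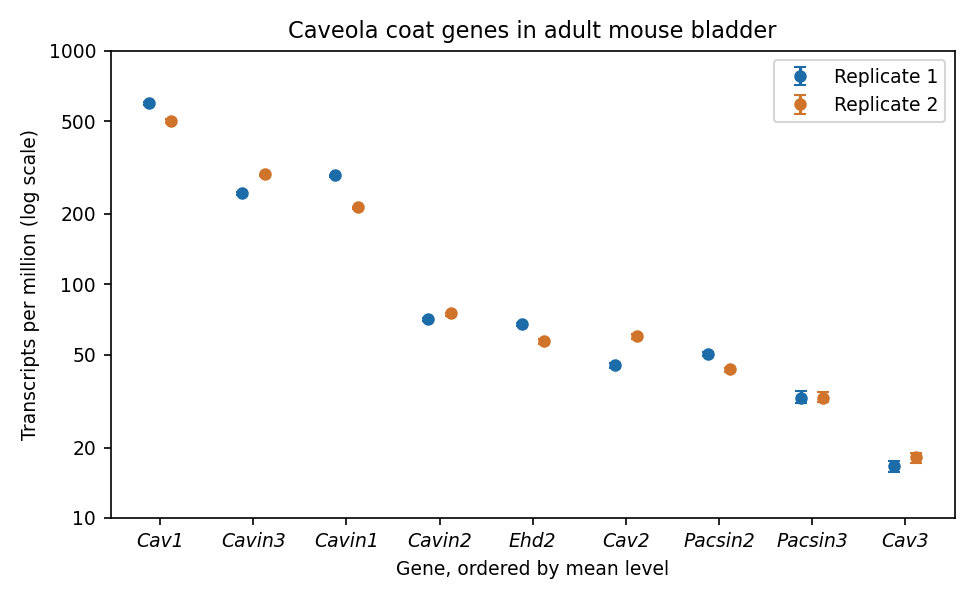
Level of each gene in TPM (log axis) in replicate 1 (blue) and replicate 2 (orange), ordered by the mean of the libraries; the bars are the interval bounds deposited with each TPM value. Cav1 sits at 599 and 502 TPM, above all others, Cavin3 and Cavin1 exchange places between the libraries, and Cav3 is lowest at 16.7 and 18.2 TPM.

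Among the cavins, Cavin1 and Cavin3 were several-fold above Cavin2. Cavin1, without which caveolae do not form, had 294 TPM in replicate 1 and 214 TPM in replicate 2 (254 ± 56.6; ENSMUSG00000004044.9, chr11:100956733-100970887, minus strand). Cavin3, first described as a binding partner of protein kinase C delta, had 246 and 296 TPM (271 ± 35.6; ENSMUSG00000037060.2, chr7:105480083-105482300, minus strand). The order of these genes turned over: Cavin1 was 1.19 times Cavin3 in replicate 1 and 0.721 times in replicate 2, a log2 ratio of -0.11 ± 0.52 that was smaller than its spread. The mean of the deposited mm9 values put Cavin1 above Cavin3, by 0.18 on the log2 scale. Cavin1 has a length of 3470 bases and Cavin3 of 1035 bases, so that Cavin1 took 74246 and 59000 counts where Cavin3 took 15825 and 20738.

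Cavin2, which shapes caveolar membrane in endothelium of some organs, had 71.1 and 75.1 TPM (73.1 ± 2.81; ENSMUSG00000045954.7, chr1:51289126-51302960, plus strand). Cavin1 exceeded it 4.13-fold and 2.84-fold. Cavin2 lay below Cavin3 in both libraries, with log2 ratios of -1.79 and -1.98. Summed over the 3 genes, cavins came to 611 and 585 TPM and caveolins to 661 and 581 TPM, so the ratio of cavins to caveolins was 0.924 in replicate 1 and 1.01 in replicate 2. This ratio compares RNA levels and carries no count of protein subunits.

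Ehd2 had 67.7 and 57.0 TPM (62.4 ± 7.54; ENSMUSG00000074364.5, chr7:15946958-15967567, minus strand). Its ratio to Cav1 barely moved between the libraries: Cav1 was 8.85 and 8.81 times Ehd2, both genes being lower in replicate 2. In the mean mm9 values this log2 ratio was 2.48, against 3.14 in TPM. Pacsin2 had 50.5 and 43.5 TPM (47.0 ± 5.01; ENSMUSG00000016664.10, chr15:83375607-83464606, minus strand). Pacsin3 had 32.6 and 32.5 TPM (32.5 ± 0.042; ENSMUSG00000027257.9, chr2:91255954-91264679, plus strand). Pacsin2 was above Pacsin3 in each library, 1.55-fold and 1.34-fold.

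**Figure D2:**
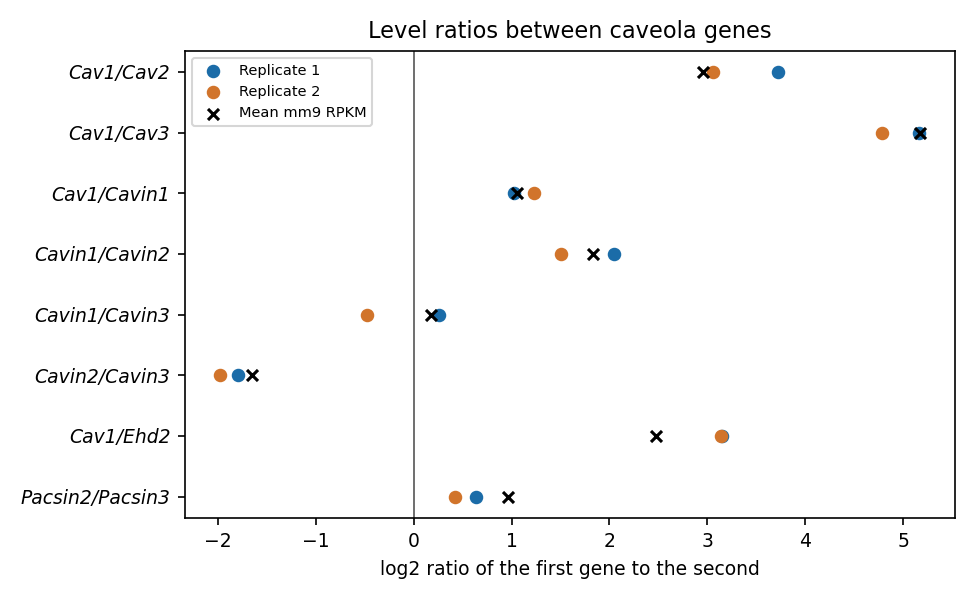
Log2 ratio of the level of the first gene to that of the second for 8 pairs, from the TPM of replicate 1 (blue) and replicate 2 (orange) and from the mean of the mm9 RPKM values (cross). Cavin1/Cavin3 lies on both sides of 0, at 0.26 and -0.47, whereas the other 7 pairs stay on 1 side in both libraries.

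Ordered by mean, the genes ran Cav1, Cavin3, Cavin1, Cavin2, Ehd2, Cav2, Pacsin2, Pacsin3 and Cav3. Of the 8 neighbouring pairs in that order, 3 had overlapping values over the libraries: Cavin3 with Cavin1, Ehd2 with Cav2, and Cav2 with Pacsin2. In the other 5 pairs both values of the higher gene lay above both values of the lower. For Cavin2 over Ehd2 that gap was narrow, 71.1 TPM against 67.7 TPM in the library where they were closest, and the mean mm9 values put Ehd2 (16.7 RPKM) above Cavin2 (12.6 RPKM).

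The transcript tables divided Cav1 among 10 transcripts. Forms with another first exon were estimated at a sizeable share of TPM, but junction reads, given below, gave the short forms Cav1-203 and Cav1-208 far less. Cav1-201, encoding the full 178 residues (caveolin-1 alpha), held 53.9% of the gene's TPM in replicate 1 and 53.0% in replicate 2. Cav1-205, with the same 178 residues and a further intron removed after the stop codon, held 11.6% and 8.89%. Cav1-202 and Cav1-203 start downstream, lack the first exon and encode 147 residues (caveolin-1 beta). They held 9.51% and 9.40%, and 8.00% and 9.29%. The non-coding Cav1-208 held 15.1% and 17.6%.

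Both protein forms share the reading frame and differ by the first 31 codons. The stretch that separates them is shown from the Cav1-201 transcript of GENCODE M21, with both start codons in capitals. Its first 30 bases lie in the upstream first exon, at chr6:17306450-17306479, and the rest in the second exon.
Cav1 from the alpha to the beta start codon: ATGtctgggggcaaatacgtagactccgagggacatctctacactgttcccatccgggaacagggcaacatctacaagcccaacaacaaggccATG

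Junction reads, counted by the authors on mm9 over both libraries together, came mostly from the upstream first exon. Of 11490 reads that joined a listed or new first exon to the start of the second exon, 11120 came from the upstream exon (chr6:17256480-17257880 on mm9), or 96.8% (95% Wilson interval 96.4% to 97.1%). The first exon of Cav1-206 gave 190 reads (1.65%) and that of Cav1-203 gave 153 reads (1.33%). Cav1-202 begins within the first intron and reads through into the second exon without such a junction, so these reads say nothing of its level. Such intervals cover counting error only, since reads without molecular identifiers are not independent molecules.

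The scale mattered for the downstream forms. The 4 transcripts that start downstream held 34.2% and 37.8% of Cav1 TPM but 18.2% and 18.9% of its counts. Cav1-203, of 613 bases, held 8.00% and 9.29% of TPM but a mean of 2.18% of counts, beside 1.33% of the first-exon junction reads. For Cav1-208, of 345 bases, the share fell from a mean of 16.3% of TPM to 1.41% of counts. The intron that only Cav1-208 uses had 53 reads, against 13813 for the last intron of the coding forms and 688 for the extra intron of Cav1-205.

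Cav2, Cavin1 and Ehd2 were each led by 1 transcript. Cav2-201, encoding 162 residues, held 95.2% and 93.8% of TPM, and Cavin1-201, encoding 392 residues, 99.7% and 98.8%. Ehd2-201, encoding 543 residues, held 100% and 98.4%. Cav3 (151 residues), Cavin2 (418 residues) and Cavin3 (260 residues) had 1 quantified transcript each.

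Pacsin2 had 3 transcripts with the same 486 coding residues. Pacsin2-203 held 77.2% in replicate 1 and 89.2% in replicate 2, and Pacsin2-201 held 17.1% and 7.07%. In the deposited mm9 exon table Pacsin2-201 is set apart by an intron of 288 bases after the stop codon and an intron of 59 bases near its 5′ end. Neither had a read in the junction table, which lists junctions down to a single read. Pacsin2-202, which has its own first exon, held 5.68% and 3.73%, and its first intron had 40 reads against 425 for the first exon of the other forms.

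Pacsin3 was the most divided, with 15 transcripts. Pacsin3-201 held 47.7% and 41.1% of TPM and Pacsin3-215 held 10.9% and 20.8%, both encoding 424 residues. They differ in where the second exon begins, 4 bases apart and before the start codon. Junction reads from their shared first exon numbered 286 to the earlier of these sites and 86 to the later, so that the later took 23.1% (19.1% to 27.7%). A further 35 reads left the second exon out, as in Pacsin3-212.

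**Figure D3:**
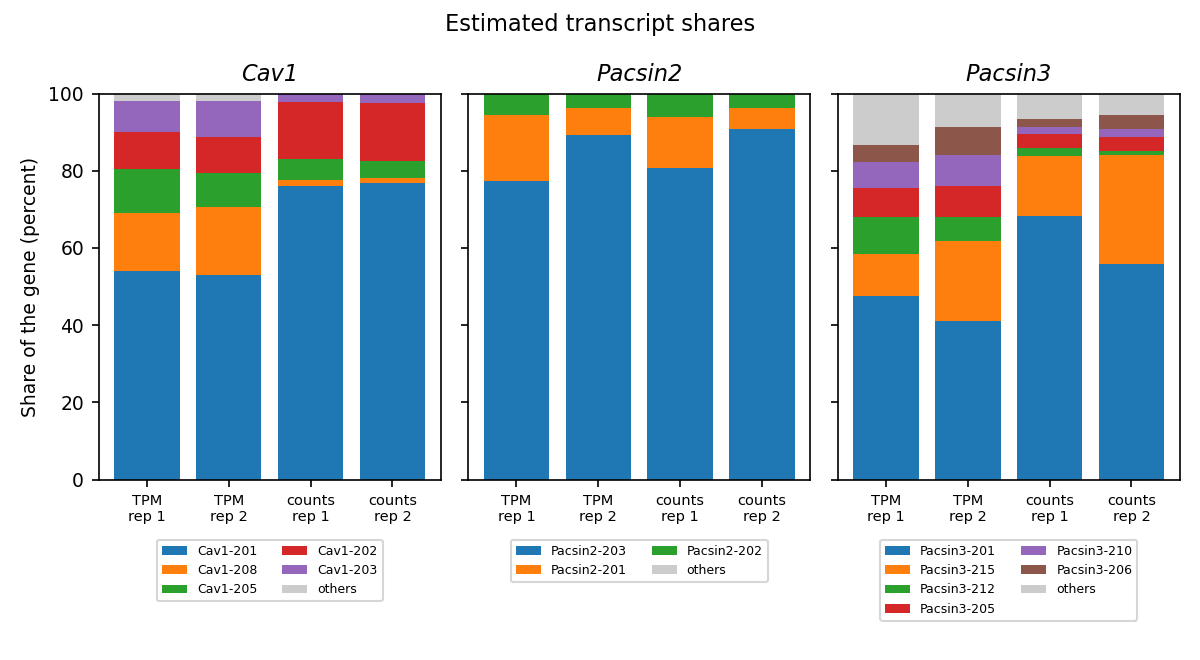
Share of each transcript in its gene (percent, stacked to 100) for Cav1, Pacsin2 and Pacsin3, by TPM and by expected counts in replicates 1 and 2; transcripts with a mean TPM share under 4% are grouped as others. Cav1-208 takes 15.1% and 17.6% of TPM but a mean of 1.41% of counts, and Pacsin3-215 grows from 10.9% to 20.8% of TPM between the libraries.

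Exons within the coding sequence were left out rarely. Exon 9 of Pacsin2 is flanked by introns with 2194 and 1769 reads, and 45 reads joined exon 8 directly to exon 10, a join of known ends that no listed transcript holds. The exon was thus kept in 97.8% of events (97.1% to 98.4%, counting the mean of the flanking introns). It has 123 bases, or 41 codons, lies inside the coding sequence at mm10 chr15:83379684-83379806 on the minus strand, and is shown because its loss would leave the reading frame intact.
Pacsin2 exon 9: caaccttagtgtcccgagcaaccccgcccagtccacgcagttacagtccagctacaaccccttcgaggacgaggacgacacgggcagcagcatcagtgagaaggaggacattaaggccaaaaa
Exon 2 of Cav2, which also lies inside the coding sequence, was kept in 99.4% of events (99.1% to 99.6%), with 2730 and 3064 reads on its flanks and 17 reads that skipped it, as in Cav2-203. It has 188 bases, not a multiple of 3, at chr6:17281895-17282082.
Cav2 exon 2: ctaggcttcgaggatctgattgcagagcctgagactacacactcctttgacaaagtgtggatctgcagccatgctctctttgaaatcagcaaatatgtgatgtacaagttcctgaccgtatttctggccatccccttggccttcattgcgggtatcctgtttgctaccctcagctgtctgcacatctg

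Over the 9 genes, 80759 reads crossed 486 junctions on the gene's own strand, and 97.7% of the reads fell on 47 introns of listed transcripts. In 8 genes this share ran from 97.3% (Cavin1) to 98.9% (Cav2). In Pacsin3 it was 87.8%, and 650 of the remaining reads lay on an intron of 107 bases whose ends were both 2 bases before those of a listed intron of equal length that itself had no read. Counting these, the Pacsin3 share was 99.4%. Of the 486 junctions, 263 had a single read. On the opposite strand 13 reads crossed 8 junctions. Other annotated genes overlap 6 of the 9, and whether the counting used strand is not stated: Gm15581 (0 and 1 counts) lies opposite Cav1 and Cav2, 9330175M20Rik (15 and 17 counts) opposite Cavin2, Gm17281 (8 and 11 counts) opposite Pacsin3, and Gm5417 (4.17 and 8.11 counts) on the strand of Pacsin2. Gm45667, opposite Cavin3, was matched to no row of the tables.

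By gene, the junction with most reads had 13813 in Cav1, 3064 in Cav2, 672 in Cav3, 8895 in Cavin1, 2501 in Cavin2, 5005 in Cavin3, 2650 in Ehd2, 2545 in Pacsin2 and 721 in Pacsin3. Unlisted junctions with at least 10 reads were few. In Cav1 the end exon of Cav1-208 was entered by its 53 reads and left, after 125 bases, by 90 reads that ran on to the last coding exon, an inclusion of 0.515% against the 13813 reads that passed over it, and other unlisted junctions of Cav1 had 27 and 25 reads. Alternative ends 4 bases from a listed exon had 22 reads in Cav2, 14 in Cavin2 and 49 in Ehd2, and a further Ehd2 junction had 58. In Pacsin2 an exon of 99 bases in the first intron was entered by 16 reads and left by 27, and other unlisted junctions had 21 and 16 reads. Cavin3 had 21 reads on a gap of 39 bases and Cavin1 16, 14 and 10 reads on gaps of 62, 120 and 60 bases, with neither end at an exon end. The first exon of Cavin1 was joined to the short form Cavin1-202 by 77 reads, 0.858% of the reads on listed Cavin1 introns (0.687% to 1.07%).

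Along Pacsin2-203 the reads per intron were 425 at the first and 2545 at the last of 10 introns. In Ehd2-201 they stayed between 1942 and 2650 over 5 introns, with the lowest at the last. In Pacsin3-201 the first had 286 reads and the last 688, with 721 at the seventh.

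**Figure D4:**
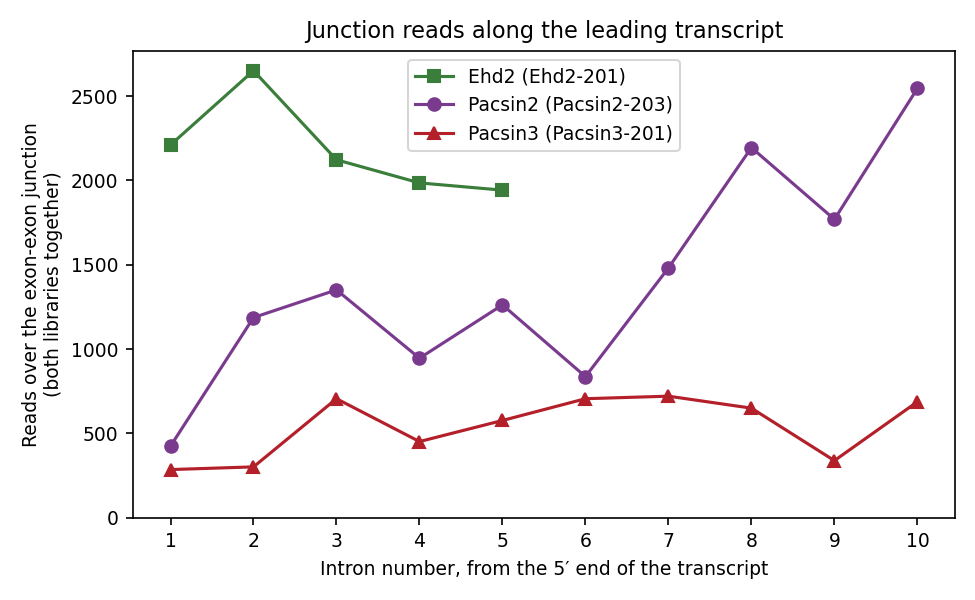
Reads over each exon-exon junction of the leading transcript of Ehd2, Pacsin2 and Pacsin3, both libraries together, by intron number from the 5′ end. Pacsin2 runs from 425 reads at intron 1 to 2545 at intron 10, whereas Ehd2 stays between 1942 and 2650.

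No member differed between the libraries by 1.5-fold or more, where 8.52% of the 14533 genes averaging 1 TPM or more did. The differences are log2 ratios of replicate 2 to replicate 1 with 0.5 TPM added, and describe these libraries only. They were largest for Cavin1 (-0.46) and Cav2 (0.41), followed by Cavin3 (0.27), Cav1 (-0.25), Ehd2 (-0.25), Pacsin2 (-0.22), Cav3 (0.12), Cavin2 (0.08) and Pacsin3 (-0.003). The median of the 9 was -0.003, against 0.08 for all genes tested. In TPM 5 members were higher in replicate 1 and 4 in replicate 2; relative to the median of all genes, 6 lay below it and 3 above it, with Cavin2 and Pacsin3 close to it. Cavin2 changed sign when the ratios were centred on that median, and Pacsin3 when counts were scaled by TMM (0.0007).

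The interval bounds deposited with each TPM value did not overlap between the libraries for 7 of the 9 genes, all but Cav3 and Pacsin3, against 60.7% of all genes tested. For Cav1 they ran from 584 to 606 TPM in replicate 1 and from 489 to 509 TPM in replicate 2. The level of these bounds is not given in the sources used here, and they hold no spread between animals.

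Transcript length moved with the difference between the libraries. The median log2 ratio was 0.21 for genes under 1.5 kb, 0.14 for those of 1.5 to 3 kb and -0.04 for those over 3 kb. Cavin3, Cav3 and Pacsin3 are in the first class, Cav1 and Cav2 in the second, and Cavin1, Cavin2, Ehd2 and Pacsin2 in the third. Cavin1, at -0.46, lay below the middle 50% of its class (-0.24 to 0.12), and Cav2, at 0.41, above that of its own (-0.04 to 0.30), whereas Cavin3, at 0.27, lay within that of the short genes (-0.01 to 0.39). Cav1, at -0.25, also lay below the middle 50% of its class, and Ehd2 lay at the lower edge of its own. The part of length in these differences was not tested.

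**Figure D5:**
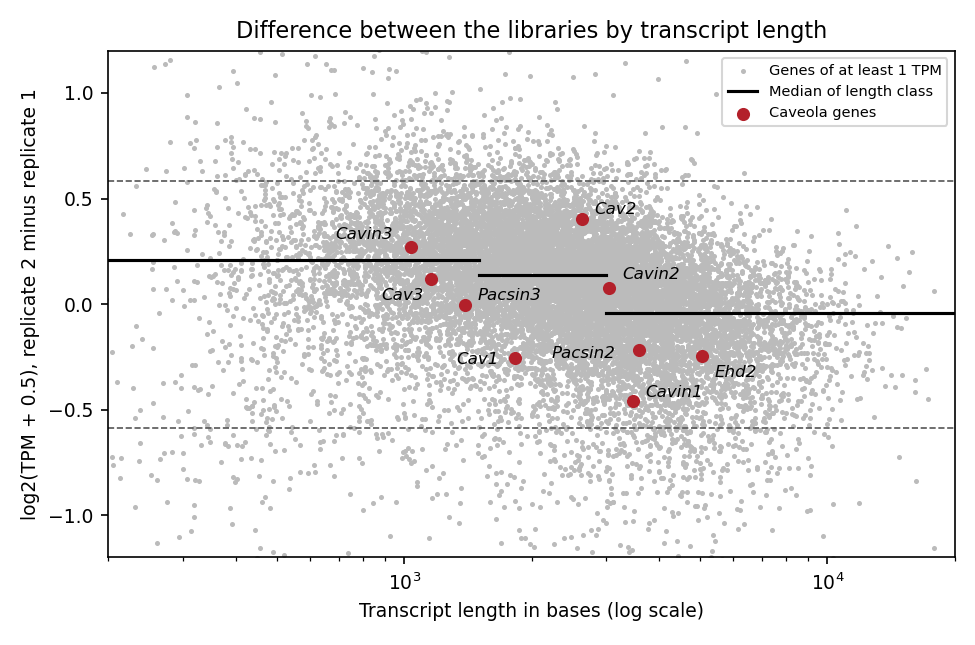
Log2 ratio of replicate 2 to replicate 1 (with 0.5 TPM added) against transcript length in bases (log axis) for genes averaging 1 TPM or more (grey) and the 9 caveola genes (red); black bars are the medians of 3 length classes, dashed lines mark 1.5-fold, and 142 genes beyond the axes are not drawn. All 9 genes lie between the dashed lines, with Cavin1 (-0.46) and Cav2 (0.41) nearest to them.

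Genes of the cell types known to carry caveolae were present and differed between the libraries. All 6 smooth muscle markers, led by Acta2 (8841 and 8508 TPM), were detected and all 6 were higher in replicate 1. They summed to 21609 TPM there and 19371 TPM in replicate 2. Their log2 ratios differed widely, from -0.01 (Tagln) and -0.06 (Acta2) to -0.85 (Myh11). All 5 endothelial markers, led by Pecam1 (46.3 and 35.9 TPM), were detected, and 4 of them were higher in replicate 1 (sums of 114 and 94.7 TPM). All 5 adipocyte markers, led by Fabp4 (587 and 1093 TPM), were higher in replicate 2, with sums of 642 and 1223 TPM and Lep at 0.95 and 3.58 TPM. Of the 5 fibroblast markers, led by Dcn (2371 and 2679 TPM), 3 were higher in replicate 1 (sums of 5197 and 5091 TPM). Cav1, Cavin1, Ehd2 and Pacsin2 were higher in replicate 1, the library with more smooth muscle and endothelial marker RNA. Cav2, Cavin3, Cavin2 and Cav3 were higher in replicate 2, the library with more adipocyte marker RNA. Of these, Cavin2 (log2 ratio 0.078) lay just below the median of all genes tested (0.083). Cav3 (0.12) lay below the median of genes under 1.5 kb (0.21), its length class. Pacsin3 (-0.003) hardly differed. Replicate 2 also had more RNA of superficial urothelium markers (sums of 3801 and 5428 TPM in replicates 1 and 2). Of the members higher in replicate 1, Cavin1, Ehd2 and Pacsin2 are over 3 kb, the length class with the lowest median ratio (-0.04). Neither group of members can therefore be tied to a cell type. The part of cell makeup in these differences was not tested.

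The urothelium, the epithelium that identifies the bladder, was seen in all 5 superficial markers, led by Upk1a (1612 and 2342 TPM), and all 3 basal markers, led by Krt15 (474 and 468 TPM). The superficial markers were all higher in replicate 2, with sums of 3801 and 5428 TPM, and the basal markers summed to 876 and 875 TPM.

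Beside Cav3, the skeletal muscle list summed to 1694 and 1360 TPM, led by Acta1 (1371 and 1042 TPM). Of its 10 genes, 4 reached 1 TPM in both libraries, and of these Acta1, Ckm (263 and 259 TPM) and Tnnt3 (56.0 and 55.5 TPM) were above Cav3. Myh1 (0.08 and 0.06 TPM), Myh4 (0 and 0.01 TPM), Atp2a1 (0.40 and 0.17 TPM), Myod1 (0.35 and 0.21 TPM) and Myog (0.02 and 0.02 TPM) were under 1 TPM in both. Of 4 cardiac genes, Tnni3 (3.80 and 3.77 TPM) was highest, and Myh6 (0.07 and 0.02 TPM) and Nppa (0.14 and 0.31 TPM) were under 1 TPM. The muscle cavin Cavin4 was at 0.20 and 0.24 TPM, from 29 and 37 counts.

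Of 14 other genes of caveolae and membrane shaping, 12 reached 1 TPM in both libraries, against 32.7% of all Ensembl genes. The median over the 14 was 49.6 TPM. None differed by 1.5-fold, where 8.52% of all genes averaging 1 TPM or more did. The flotillins, scaffold proteins of other membrane domains, had 110 and 145 TPM (Flot1) and 87.9 and 81.0 TPM (Flot2). Among the EHD family, Ehd4 (117 and 107 TPM) was above Ehd2 in both libraries, Ehd1 had 51.6 and 64.9 TPM and Ehd3 5.03 and 4.41 TPM. The dynamins, which sever membrane necks, were present as Dnm1 (78.9 and 74.7 TPM), Dnm2 (64.0 and 57.6 TPM) and Dnm3 (3.63 and 3.17 TPM). The tyrosine kinases Src (51.0 and 47.8 TPM) and Abl1 (52.4 and 47.2 TPM), which phosphorylate caveolin-1 or act on caveolae, lay close together. The insulin receptor Insr had 13.0 and 10.8 TPM and the endothelial nitric oxide synthase Nos3, which binds caveolin-1, 5.83 and 5.50 TPM. Pacsin1, the neuronal pacsin, had 0.58 and 0.53 TPM, so that with Cavin4 it was under 1 TPM in both.

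The protein-coding genes with levels most like each member were taken by distance over log2(TPM + 1) in the 2 libraries, a likeness of level only. They were Fn1 (609 and 517 TPM) and Hsp90ab1 for Cav1, Pgm5 (297 and 212 TPM) and Tnnt2 for Cavin1, and Rnase4 (251 and 293 TPM) and Ndufb8 for Cavin3. For Cav2 Bub3 (45.8 and 59.5 TPM) is given, for Cav3 they were Spcs3 and Tmem143, and for Cavin2 1110004F10Rik and Capn2. For Ehd2 they were Srf (67.2 and 57.4 TPM) and Ccnd1, for Pacsin2 Foxa1 and Galnt2, and for Pacsin3 Lad1 and Arhgap10. The distances of the genes named here ran from 0.005 (Spcs3) to 0.072 (Hsp90ab1).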

How the data were processed

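Per the labels, libraries were made from polyadenylated RNA of bladder tissue. For each library the authors deposited a gene table and a transcript table, built on mm10 and GENCODE M4. Per the file headers these give expected counts, TPM, a posterior mean TPM with interval bounds, and the percent of a gene taken by each transcript. The aligner is not given in the sources used here. The authors also deposited mm9 gene tables with 2 RPKM values that no label ties to a replicate, so only their mean was used, and a junction table with read counts over both libraries.

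The 9 members and all gene lists were chosen with earlier results of these data known. Genes were matched by identifier without version to GENCODE M21, which gave symbols, mm10 positions and coding lengths; its transcript versions can differ from those quantified. All 38 transcripts matched. Rows other than Ensembl genes, 5.01% and 5.98% of counts, were left out. Ratios between libraries used log2 with 0.5 TPM added, which understates low genes, over genes of at least 1 TPM. An intron counted as listed when a transcript of the deposited mm9 exon table holds it. The names given follow a rule: all members and list genes, per marker list the highest and those under 1 TPM, the 2 nearest genes (1 of those for Cav2 is not reported here), transcripts of at least 10% and junctions of at least 10 reads. Other transcripts, junctions and markers named, and the comparison of interval bounds, were chosen after the values were seen. The fold rule was tried on simulated data with counting error alone, folds set in genes of high counts and ratios centred on the median. That trial cannot show how the rule behaves under the spread between real libraries. Alternatives were the posterior mean, other thresholds, scalings and pseudocounts, and leaving out each library. Tools were Python 3.11.15 with numpy 2.4.6, pandas 2.3.3, scipy 1.17.1 and matplotlib 3.10.9, and edgeR 4.0.16 in R 4.3.3 for TMM scaling of rounded counts.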

Additional observations from a re-analysis of the deposited data

How the results depend on the processing

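All 9 genes reached 1 TPM in both libraries at thresholds of 0.5 and 5 TPM, with the posterior mean and in each library alone. The summed share of the 9 was 0.175% of TPM without mitochondrial genes and 0.221% of expected counts, and 0.141% to 0.151% with either library left out. The log2 ratio of Cavin1 to Cavin3 turned to 0.18 in the mm9 values and ran from -0.47 to 0.26 with either library left out, and the cause was not tested. The log2 ratio of Pacsin2 to Pacsin3 was 0.97 in the mm9 values, against 0.53. No gene of the 9 passed 1.5-fold under other pseudocounts, filters, TMM scaling or centring on the median. In these settings 3.79% to 10.4% of genes tested did, so with 9 genes this does not set the members apart. At the lowest fold tried Cav2 and Cavin1 passed, 2 of 9 against 30.9% of genes tested. At 2-fold none did, against 1.58% of genes tested. Among junctions with at least 10 reads, 98.6% of reads were on listed introns, which leaves out single-read junctions by construction. Single levels moved by more than the spread of the libraries in 19 of 45 alternatives, mainly through the rescaling without mitochondrial genes and the mm9 values. All 9 levels rose without mitochondrial genes. All 9 also rose in the mm9 values scaled to the same total, least for Pacsin3, to 36.7 (32.5 TPM). The mm9 values moved 5 levels by over 1.5 times: to 147 for Ehd2 (62.4 TPM), 105 for Cav2 (52.7 TPM), 394 for Cavin1 (254 TPM), 71.7 for Pacsin2 (47.0 TPM) and 111 for Cavin2 (73.1 TPM). Cav1 rose to 816 (551 TPM). The cause was not tested. No paired analysis was possible because the study holds 1 group. With n = 2 the spread itself is poorly known.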
